A study of Danio rerio with 3 samples.

Results

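The chemokine row named CXCL12 (ENSDARG00000037116) was followed along the zebrafish heart, as 1 of 16023 gene rows in the count tables of 3 hearts. Its reads lay in few sections. In heart 1 they lay near the outflow tract end. In heart 2 they spanned the outflow tract end and the sections just below it. In heart 3 they were few and lay in sections rich in ventricular myosin RNA. The row was chosen by its measured profile in these hearts, so its own values are given as a description, with no test. The symbol in capitals is that of the human match. The zebrafish paralog cxcl12b has a row of its own, and the name table does not pair the CXCL12 row with a zebrafish name.

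The hearts came from wild-type zebrafish embryos, with no allele and no agent, at 48 hours (2 days) post fertilization. Each was dissected whole and cut into 10 µm sections along the axis from outflow tract to inflow, and the RNA of each section received its own barcode. The barcoded sections were then pooled, amplified and sequenced by CEL-seq, a method that reads the 3' end of polyadenylated RNA (tomo-seq). Heart 1 gave 40 tissue sections (2 to 41, numbered from the outflow tract), heart 2 gave 48 (49 to 96, numbered from the inflow) and heart 3 gave 29 (11 to 39, numbered from the inflow). Each heart is 1 animal, so n = 3, and sections of a heart are not replicates.

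CXCL12 is a secreted chemokine, a small protein that steers migrating cells along its gradient. It is bound by CXCR4, a receptor that signals through inhibitory G proteins, and by ACKR3, which takes the ligand up and clears it without G protein signalling. In zebrafish the chemokine guides primordial germ cells and the lateral line primordium, and in mouse the ligand and CXCR4 are needed for normal growth of the coronary arteries. The teleost genome carries paired copies of the ligand and of both receptors.

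The 3 hearts held 5889097, 5243516 and 2590278 gene reads. Section totals ran from 493 to 524825 in heart 1, from 1601 to 1106493 in heart 2 and from 190 to 711407 in heart 3, with 7, 9 and 13 sections under 10000 gene reads. The thin sections of heart 3 included all of sections 32 to 39, its outflow tract end. Levels are given as reads per 10000 gene reads of the same section or region, with exact Poisson 95% limits. Those limits cover counting error only, since reads can be PCR copies and no source says whether molecular identifiers were counted. In sections of pooled tissue, fewer cells of a type and less RNA per cell cannot be told apart.

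Heart 1 had 1718 reads of CXCL12, heart 2 had 2302 and heart 3 had 133. That is 2.92 (95% limits 2.78 to 3.06), 4.39 (4.21 to 4.57) and 0.513 (0.43 to 0.609) reads per 10000 gene reads. By total reads it ranked 296 of 13137 detected genes in heart 1, 226 of 13545 in heart 2 and 2599 of 9384 in heart 3. It was thus an abundant transcript in hearts 1 and 2, with 97.7% and 98.3% of detected genes below it, and a less abundant one in heart 3, with 72% below it. The reads were concentrated: 18 of 117 sections held any, and the best 3 sections of each heart held 97.7%, 75.9% and 100% of its total.

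In heart 1, sections 4 and 6 near the outflow tract end carried nearly all reads. Sections 2 and 3, at the end itself, had 0 reads among 9968 and 9810 gene reads, which allows up to 3.01 and 3.06 per 10000. Section 4 had 943 reads, or 18 per 10000 (16.8 to 19.2), and section 6 had 624, or 19.7 per 10000 (18.2 to 21.3). These levels placed CXCL12 at rank 69 of 6129 and rank 68 of 5234 detected genes of those sections. The counting limits of both sections overlap, so their levels were not distinguishable. Section 5, between them, had 0 reads among 30455 gene reads, which allows a level of up to 0.985 per 10000. At the mean level of its neighbours, 57.3 reads would have been counted there. Section 5 held 617 detected genes against 6129 in section 4, and the part of that thin section's depth in the gap was not tested.

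Further from the outflow tract end of heart 1 the reads thinned out. Section 7 had 17 reads (3.39 per 10000), section 8 had 11 (0.49), section 9 had 112 (2.37, limits 1.95 to 2.85) and section 10 had 0. Section 11 had 5 reads (1.51). The only reads elsewhere were 6 in section 23, in the AV canal, at 0.446 per 10000 (0.164 to 0.97). The other 26 sections with at least 10000 gene reads had none.

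Heart 2 showed the same end of the axis with a broader profile. Section 90 was highest with 1017 reads, or 14.5 per 10000 (13.7 to 15.5). Towards the outflow tract the level fell to 6.31 in section 91 (192 reads), 4.32 in section 92 (314 reads) and 3.75 in section 93 (415 reads). Section 94 had 0 reads among 89979 gene reads, section 95 had 41 (0.806) and section 96, the last, had 0 among 158991. On the inflow side section 89 had 316 reads (8.01, limits 7.15 to 8.95) and section 88 had 6 (6.03, limits 2.21 to 13.1, among 9956 gene reads). The peak therefore lay several sections inside the outflow tract end and not at its tip. A single read in section 76 was the only other one, and 32 sections with at least 10000 gene reads had none.

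In heart 3 the row was present in 3 neighbouring sections. Section 28 had 50 reads (0.703 per 10000, limits 0.522 to 0.927), section 29 had 66 (1.83, limits 1.42 to 2.33) and section 30 had 17 (1.48, limits 0.86 to 2.36). The best level was far under the 19.7 and 14.5 reached in hearts 1 and 2. All 13 other sections with at least 10000 gene reads had 0 reads.

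**Figure D1:**
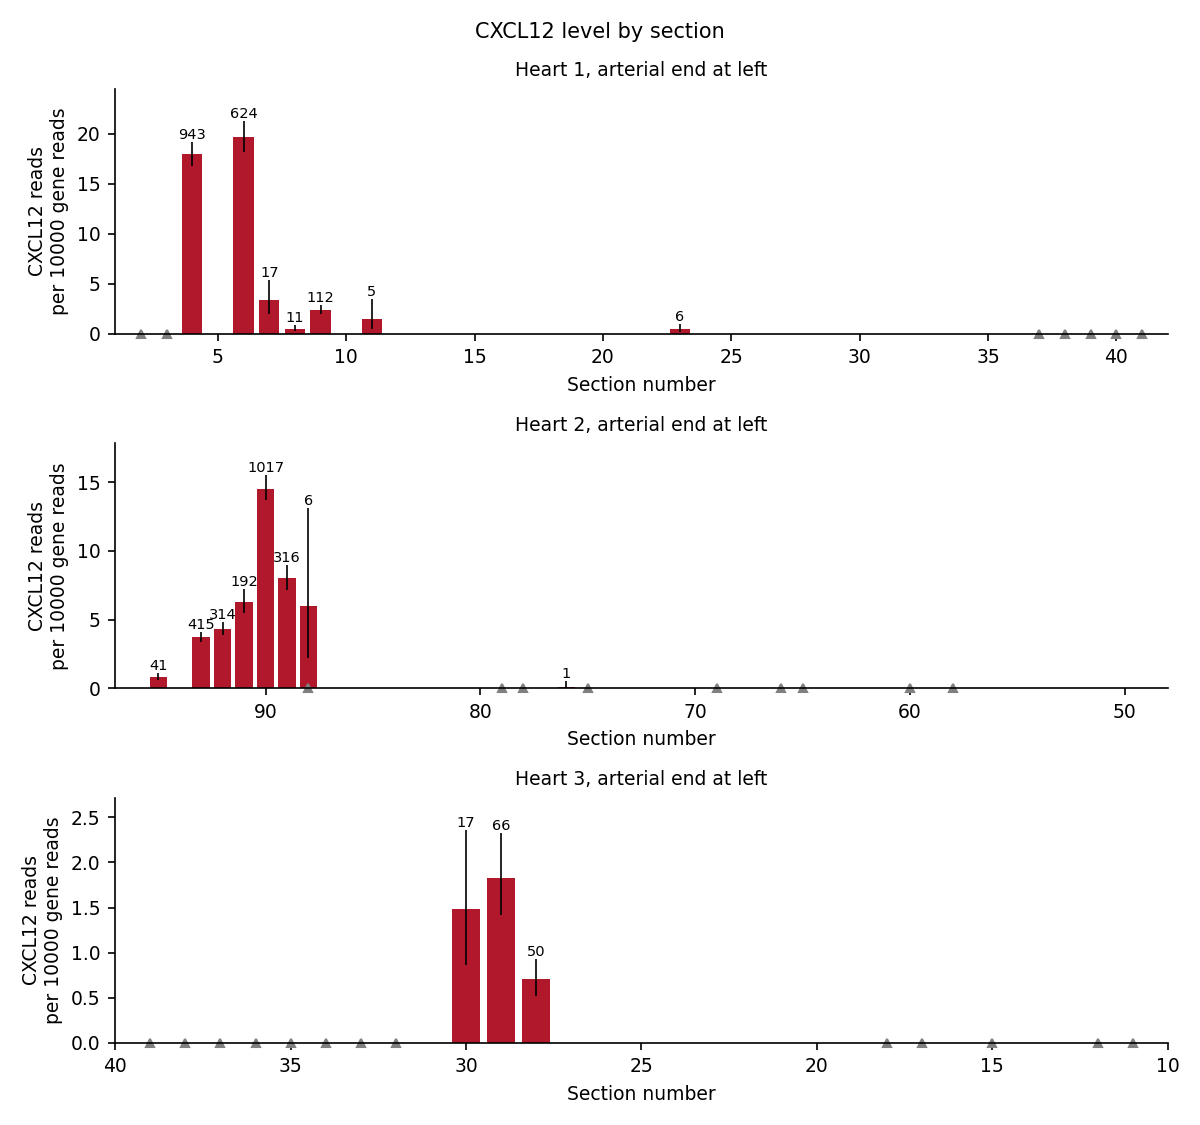
CXCL12 in each section of hearts 1, 2 and 3, plotted from the outflow tract end to the inflow end, as the level in reads per 10000 gene reads with exact Poisson 95% limits. The level peaks at 19.7 in section 6 of heart 1 and at 14.5 in section 90 of heart 2, and stays at or below 1.83 in heart 3.

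Small counts weigh little in this picture. A detected gene had a median of 10 to 34 reads in the sections that held CXCL12, and 1.5% to 6.3% of detected genes there had a single read. Of the 18 sections with CXCL12 reads, 12 had more than that median and 6 had as many or fewer. Those 6 sections, which include the AV canal sections of hearts 1 and 2, held 46 of 4153 reads.

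The scale of the level moved the peak section in 2 hearts. In heart 1 the most reads were in section 4, the highest level per 10000 was in section 6, and without the most abundant row of the table both stood at 26.2. Per 1000 spike-in reads section 6 had 393 and section 4 had 352. In heart 2 section 90 was highest on each of the 4 scales tried. In heart 3 section 29 was highest by reads and by level, whereas per 1000 spike-in reads section 28 had 156 and section 29 had 66.5.

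Heart muscle markers were low in the CXCL12 sections of hearts 1 and 2 and high in those of heart 3. The row MYL7, the atrial and ventricular myosin light chain, stood at 3.31 per 10000 in the CXCL12 sections of heart 1 against 41 elsewhere, and at 1.68 against 25.6 in heart 2. In heart 3 it stood at 77.8 against 65.8. The ventricular myosin heavy chain vmhc showed the same split. Its level was 8.3 in the CXCL12 sections against 51.6 elsewhere in heart 1, and 2.93 against 16.4 in heart 2. In heart 3 it was 138 against 27.7, and 80.9% of all vmhc reads of that heart lay in the 3 CXCL12 sections. The row for vmhc (ENSDARG00000079564) carries the human name MYH6 in the name table and was identified by its ventricular profile.

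The same contrast appears when reads are counted by how muscular the section was. Sections with at least 10000 gene reads and MYL7 under 10 per 10000 held 1707 CXCL12 reads (99.4%) in heart 1. In heart 2 they held 2295 (99.7%), and in heart 3 they held 0. Those 8 sections held 29.3% of the gene reads of heart 1 and those 19 held 83.6% of heart 2, while the 3 of heart 3 held 286291 gene reads. Those of heart 3 were sections 13, 14 and 16, at its inflow end, and it had no outflow tract section of that depth with so little MYL7. Its 0 is therefore not comparable with the counts of hearts 1 and 2. In heart 2 the large share thus stands beside a share of gene reads that is itself large. Arterial to the section that holds the median CXCL12 read lay 3 of 22770 vmhc reads in heart 1 (0.01%), 73 of 3413 in heart 2 (2.14%) and 1695 of 20310 in heart 3 (8.35%). In each heart, then, most ventricular myosin lay on the inflow side of the middle of CXCL12 or in the same sections.

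**Figure D2:**
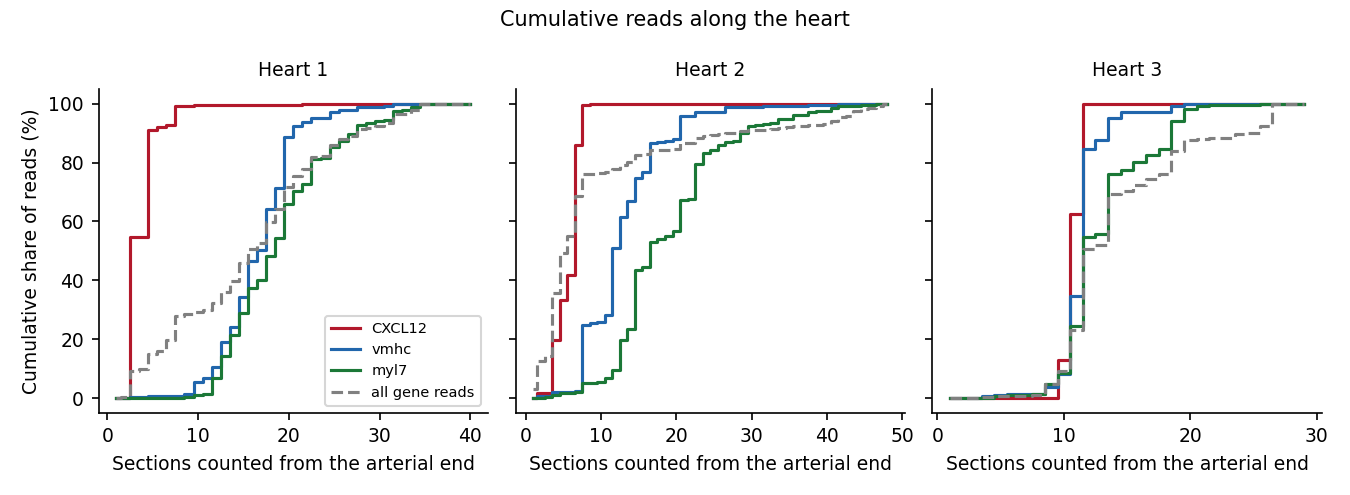
Running share of the reads of CXCL12, vmhc, MYL7 and all genes from the outflow tract end (left) to the inflow end (right) of each heart. CXCL12 reaches its median read in section 4 of heart 1 and section 90 of heart 2 before vmhc has begun to climb, and in section 29 of heart 3 within the vmhc climb.

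To compare regions across hearts, sections were summed in windows. In heart 1 the windows were the outflow tract (sections 4 to 10), ventricle (12 to 18), AV canal (19 to 26), atrium (27 to 32) and sinoatrial region (33 to 39). Hearts 2 and 3 were laid on this scale by the level-weighted median sections of vmhc and of myh6, the atrial myosin heavy chain. Those median sections, vmhc first, were 16 and 30 for heart 1, 83 and 65 for heart 2 and 31 and 21 for heart 3. In heart 2 the outflow tract became sections 91 to 96, and in heart 3 sections 35 to 39.

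In the outflow tract window CXCL12 stood at 10.2 per 10000 in heart 1 (1707 reads), 3.32 in heart 2 (962 reads) and 0 in heart 3. The mean was 4.51 ± 5.2 (SD, n = 3), so the spread between hearts exceeded the mean. The 0 of heart 3 comes from a window of 14700 gene reads, which allows a level of up to 2.04, above that heart's own best section. The outflow tract window of heart 3 also held vmhc at 133 and MYL7 at 108 per 10000, against 0.252 and 0.231 in heart 2. By these markers the sections called outflow tract were rich in heart muscle RNA in heart 3 and poor in it in heart 2. In heart 1 MYL7 stood at 0.414 there. The paper takes the first sections of heart 1 as most likely the arterial pole without heart muscle. The name outflow tract is thus a place on the scale, and these markers do not bear it out in any heart.

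In the ventricle window heart 1 had 0 CXCL12 reads, heart 2 had 6 (0.142 per 10000) and heart 3 had 17 (0.757), with a mean of 0.3 ± 0.402 (SD, n = 3). In the AV canal window heart 1 had 6 reads (0.0306), heart 2 had 1 (0.0328) and heart 3 had 116 (0.71), with a mean of 0.258 ± 0.392 (SD, n = 3). Ordered by their means, outflow tract, ventricle and AV canal overlapped in their ranges over hearts, and neighbours in that order did not differ beyond their spread. The atrium and the sinoatrial region came last, with 0 reads in all 3 hearts. A count of 0 allows up to 0.0687, 0.275 and 0.0752 per 10000 in the atrium and up to 0.0786, 0.103 and 0.524 in the sinoatrial region of hearts 1, 2 and 3.

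The windows left out part of the profile in heart 2. Sections 89 and 90, at 11.33 and 10.56 on the scale of heart 1, fell between outflow tract and ventricle. With the other sections outside the windows they held 1333 reads, or 10.9 per 10000, which is 57.9% of the heart's CXCL12. The outflow tract window held 99.4% of the CXCL12 reads in heart 1, against a median of 34% over the 4371 genes with at least 100 reads, and 49 genes (1.12%) had as large a share. In heart 2 it held 41.8%, against a median of 56% over 4920 genes, so that 3669 genes (74.6%) had as large a share. The outflow tract share of CXCL12 was thus high in heart 1 and below that of the middle gene in heart 2.

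Against the other 4 windows together, the outflow tract level was 711-fold higher in heart 1 (exact 95% interval 326 to 1940) and 53.6-fold higher in heart 2 (25.9 to 134). On the log2 scale that is 9.47 and 5.74. In heart 3 no difference was detectable at this depth, with an upper limit of 4.43-fold. These intervals cover counting error within a heart and say nothing of the spread between animals. The ratio of heart 2 turned with the placement. Moved by 1 section of heart 1 toward the inflow, its outflow tract stood at 2.97 per 10000 against 6.35 in the other windows. That is a ratio of 0.468. Moved by as much toward the outflow tract end, the ratio was 662.

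The AV canal against ventricle and atrium gave 6 reads against 0 in heart 1, a ratio with an exact lower limit of 1.09. In heart 2 it gave 1 read against 6, a ratio of 0.29 (0.00632 to 2.39), and in heart 3 it gave 116 reads against 17, a ratio of 2.61 (1.56 to 4.63). The 6 AV canal reads of heart 1 are all from section 23, and the 116 of heart 3 are those of sections 28 and 29 next to the ventricle window. In those 2 sections vmhc stood at 142 and 149 per 10000 and myh6 at 0. The AV canal window of heart 3 held vmhc at 110 per 10000, against 66.8 in its ventricle window. By this marker the name AV canal is not borne out for the CXCL12 sections of heart 3. The sinoatrial region, with 0 reads, was lower than the other windows together in hearts 1 and 2, where the exact upper limits of the ratio were 0.0308 and 0.0487. In heart 3 the upper limit was 1.12, so no difference was detectable there. Of the reads in those other windows, the outflow tract held 1707 of 1713 in heart 1 and 962 of 969 in heart 2. The atrium of both hearts and the ventricle of heart 1 had 0 reads as well. The low ratio is thus not particular to the sinoatrial region. Ventricle against atrium gave 0 against 0 reads in heart 1, 6 against 0 in heart 2, with an exact lower limit of 0.303, and 17 against 0 in heart 3, with an exact lower limit of 7.33.

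**Figure D3:**
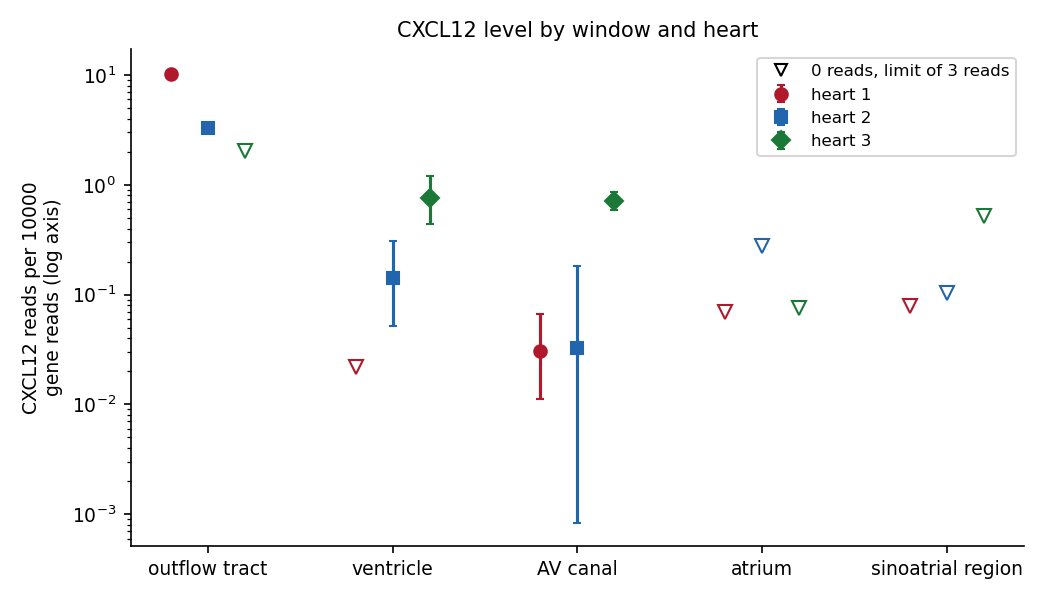
CXCL12 level in 5 windows of hearts 1, 2 and 3 in reads per 10000 gene reads, with exact Poisson 95% limits. Where no read was counted, the level that 3 reads would give is drawn. Among windows with reads, only the outflow tract of hearts 1 and 2 exceeds 1 per 10000, at 10.2 and 3.32. The outflow tract of heart 3 had 0 reads and is drawn at 2.04. The atrium and sinoatrial windows have 0 reads in each heart.

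The placement of hearts 2 and 3 decided which window received their reads. Moves are by 1 section on the scale of heart 1. That is more than 1 section of heart 2 and less than 1 of heart 3. With both hearts moved toward the outflow tract end, the outflow tract of heart 2 became sections 89 to 96 with 2295 reads (5.75 per 10000). In heart 3 the ventricle then held 83 reads and the AV canal 50. With both moved 1 section toward the inflow, the ventricle of heart 2 became sections 82 to 90 with 1339 reads (9.33 per 10000) and its outflow tract held 770. With medians weighted by reads, a placement added after seeing the data, heart 2 had no outflow tract window and its ventricle (sections 85 to 95) held 2301 reads. Under that placement the ventricle of heart 3 held all 133 reads and its AV canal 0. The names ventricle, AV canal and outflow tract for the CXCL12 sections of hearts 2 and 3 therefore rest on that step, while the atrium and sinoatrial region had 0 reads under each placement.

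The paralog cxcl12b (ENSDARG00000055100), a second ligand of the same receptors, had 42, 187 and 202 reads in hearts 1, 2 and 3. In heart 1 its peak was section 12, at the outflow side of the ventricle window, with 34 reads (7.94 per 10000), and 7.1% of its reads lay in sections with CXCL12. In heart 2 it peaked in section 91 with 87 reads (2.86), and in heart 3 section 29 had 116 reads (3.22) and section 30 had 63 (5.47). There 97.3% and 100% of its reads lay in CXCL12 sections. Those sections held 29.8%, 73.5% and 45.8% of all gene reads in hearts 1, 2 and 3. The paralogs were in different sections in heart 1 and largely in the same ones in hearts 2 and 3, and cxcl12b had more reads than CXCL12 in heart 3 alone.

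The signalling receptor CXCR4 has a pair of rows. The row ENSDARG00000041959 had 39 reads in heart 1, of which 27 were in section 4 and 11 in section 11. It had 103 in heart 2, with 39 in section 89 and 19 in section 85, and 11 in heart 3, all in section 30. The row ENSDARG00000057633 had 40 reads in heart 1, with 34 in section 8 and 6 in section 10, and 37 in heart 2, with 26 in section 95. It has no row in the table of heart 3. Both receptor rows were thus sparse. The outflow tract window held 71.8% and 43.7% of the reads of ENSDARG00000041959 in hearts 1 and 2, and 100% of those of ENSDARG00000057633 in both. That window held 28.3% and 55.2% of all gene reads of those hearts. In heart 2 the share of ENSDARG00000041959 was therefore below that of all genes. Sections outside all windows, section 89 among them, held another 37.9% of it, beside 23.2% of gene reads.

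The scavenger receptor ACKR3 (ENSDARG00000058179) had 140, 483 and 18 reads. In heart 1 the reads were spread over sections 4 to 9, with 31 in section 6, and recurred in the sinoatrial region, with 13 in section 33 and 15 in section 35. In heart 2 sections 92 and 93 had 109 and 186 reads, and section 55 of the sinoatrial region had 15. Of its reads, 75.7% and 91.3% lay in CXCL12 sections in hearts 1 and 2, beside 29.8% and 73.5% of all gene reads. In heart 3 the share was 0%, and all 18 were in section 14. Both ends of the heart tube held ACKR3 in hearts 1 and 2, whereas CXCL12 was at one end. The other ACKR3 row (ENSDARG00000062478) had 11 reads, all in section 91 of heart 2.

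**Figure D4:**
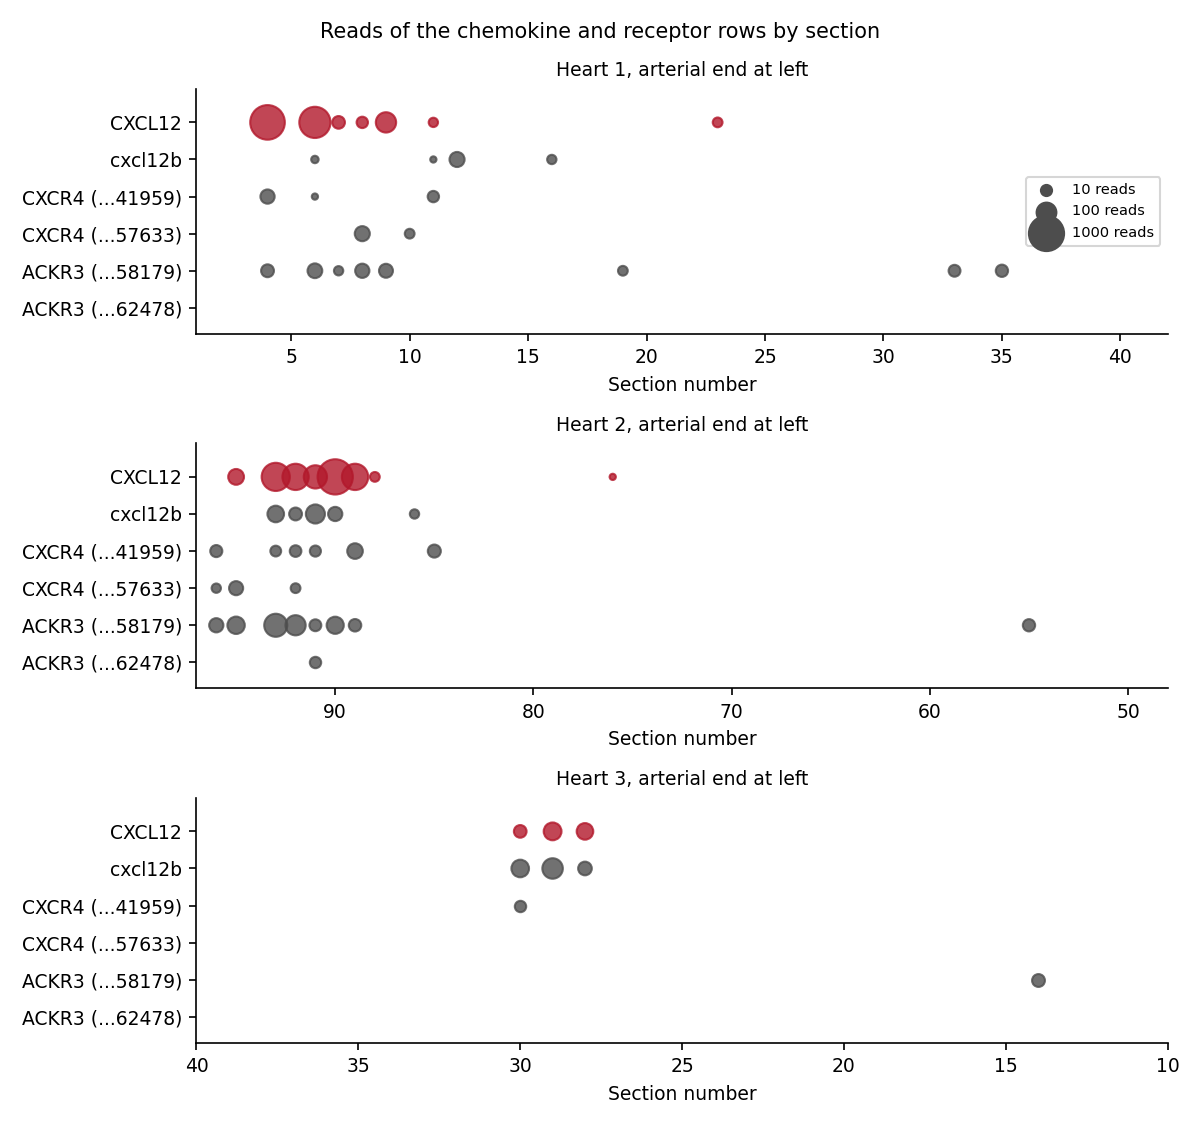
Raw reads of CXCL12, cxcl12b, CXCR4 and ACKR3 along the sections of each heart, from the outflow tract end to the inflow end. Larger dots stand for more reads. cxcl12b peaks at 34 reads in section 12 of heart 1, away from CXCL12, and the ACKR3 row ENSDARG00000058179 appears at both ends of hearts 1 and 2.

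None of these partners passed the test between windows. The test was a quasi-likelihood test on window sums with the heart as block, written in base R, with Benjamini-Hochberg adjustment over all genes tested and a threshold of 0.05. In the outflow tract against the other windows, 4 of the 5 partner rows were tested and 0 were called, against 2.57% of all 9761 genes tested. At an unadjusted p under 0.05 there was 1, and limma voom and limma on log2 levels called 0. That row was CXCR4 (ENSDARG00000057633), with 40 against 0 reads in heart 1, 37 against 0 in heart 2 and 0 against 0 in heart 3. Its log2 difference was 5.46 (SE 2.42, adjusted p = 0.169 by the quasi-likelihood test).

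ACKR3 (ENSDARG00000058179) had 106 against 34 reads in heart 1 and 395 against 15 in heart 2, a log2 difference of 2.73 (SE 1.37, adjusted p = 0.474 by the quasi-likelihood test). CXCR4 (ENSDARG00000041959) had a log2 difference of 1.47 (SE 1.56) and cxcl12b one of -1.51 (SE 1.24). The hearts went different ways for cxcl12b, with 2 reads in the outflow tract against 39 elsewhere in heart 1, 155 against 5 in heart 2 and 0 against 202 in heart 3. These log2 differences are read against a median of -0.5 over all genes in that comparison. On simulated counts of these depths the test found 62% of genes changed by 6 on the log2 scale and 4% of those changed by 3. It can thus miss changes of the size seen here. The changed genes were drawn from rows at or above the median in total reads, so recovery for sparser rows was not measured.

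The other comparisons called 0 of the partner rows as well. For the AV canal against the chambers 2 were tested, none had an unadjusted p under 0.05, and the background was 0.158% of 6964 genes. For the sinoatrial region 4 were tested, of which 1, cxcl12b, had an unadjusted p under 0.05 (adjusted p = 0.34 by the quasi-likelihood test), against a background of 0.0307% of 9761 genes. For ventricle against atrium 2 were tested, of which cxcl12b had an unadjusted p under 0.05 (log2 difference 6.34, SE 3.7, adjusted p = 0.751 by the same test), against 0.221% of 4531 genes. Limma voom and limma on log2 levels called 0 in each of these 3 comparisons.

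The signalling partners of the receptors were read throughout the heart. The list holds G protein subunits, arrestin, small GTPases, kinases and the co-receptor syndecan-4, with 27 rows in the tables. Among the 3 rows with most reads were sdc4, the co-receptor, with 580, 1034 and 523 reads in hearts 1, 2 and 3, and GNG5, a G protein gamma subunit, with 532, 1095 and 444. In the CXCL12 sections sdc4 stood at 1.33, 1.89 and 2.28 per 10000, against 0.837, 2.21 and 1.8 in the other sections. The list as a whole stood at 12.1, 14.4 and 13.9 per 10000 in the CXCL12 sections, against 11.2, 16.5 and 22.5 elsewhere. The summed level was slightly higher in the CXCL12 sections of heart 1 and lower there in hearts 2 and 3.

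Of these rows 21 were tested in the outflow tract, 18 in the AV canal, 21 in the sinoatrial region and 17 in ventricle against atrium, and 0 were called by the quasi-likelihood test in any of them. At an unadjusted p under 0.05 there were 2, 0, 3 and 2, and the limma fits called 0. The median log2 difference of the tested rows in the outflow tract was -0.92, beside -0.5 for all genes.

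Other chemokines and chemokine receptors had 16 rows, of which 7, 5, 7 and 3 were tested in the same order. In the outflow tract 1 of the 7 fell and 0 rose, against 2.57% of all genes called. It was ccl44, a CC chemokine, with 0 reads against 139 in heart 1, 0 against 20 in heart 2 and 0 against 2 in heart 3 (log2 difference -6.72, SE 2.3, adjusted p = 0.0305 by the quasi-likelihood test). Neither limma fit called it. The fitted difference depends on how the 0 counts are handled and is no bound. With no residual degree of freedom left for ccl44, its p rests on the variance trend over other genes and holds no measured spread between hearts. In the other comparisons the list had 0 calls by that test or by limma, and 0 rows had an unadjusted p under 0.05. CXCL14, named here after its values were seen, had all of its 174 reads in the outflow tract of heart 1, 100 against 67 in heart 2 and none in heart 3, and was not called.

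Markers of other cell types moved with CXCL12 in different ways in each heart. Skin keratinocyte markers were the clearest in heart 2. The 9 rows of that list summed to 39.8 per 10000 in the CXCL12 sections of heart 2 against 7.98 in its other sections, with 9 rows present. They summed to 0.45 against 0.167 in heart 1, with 4 of 9 rows present, and 2.54 against 3.29 in heart 3. The keratin krt4 had 9076 of its 9668 reads in the CXCL12 sections of heart 2, and epcam, an epithelial adhesion gene, had 2873 of 3131. Those sections held 73.5% of all gene reads of heart 2. epcam was at 0 in hearts 1 and 3. In heart 1 the CXCL12 sections held little skin RNA and no epcam read. The part of skin tissue in the CXCL12 reads of any heart was not tested.

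Mesenchyme and epicardium markers, 13 rows, summed to 17.5 per 10000 in the CXCL12 sections of heart 1 against 2.69 elsewhere. In heart 2 they were higher outside them, at 12.4 against 18.3, and in heart 3 they were at 1.81 against 1.5, with 4 rows present. The collagens COL5A1, col1a1a and COL1A2, matrix genes of connective tissue cells, led the list. In heart 1 they stood at 3.68, 3.3 and 3.78 per 10000 in the CXCL12 sections, against 0.944, 0.811 and 0.741 in the other sections. In heart 2 they went different ways, with COL5A1 at 1.71 against 6.27, COL1A2 at 1.74 against 3.71 and col1a1a at 3.13 against 2.93. The transcription factor FOXF1, known from mesenchyme and named here after its values were seen, rose in the outflow tract window. It had 49 against 0 reads in heart 1, 103 against 0 in heart 2 and 2 against 0 in heart 3 (log2 difference 6.81, SE 1.88, adjusted p = 0.00277 by the quasi-likelihood test). Heart 2 had 148 FOXF1 reads in all, and those not in the outflow tract window lay outside all windows. With 0 reads in the other windows of each heart, this fitted difference depends on how the 0 counts are handled and is no bound. The 2 reads of heart 3 come from a window of 14700 gene reads that was rich in heart muscle RNA, unlike that of hearts 1 and 2. Without heart 1 or without heart 2 the outflow tract test called 0 genes, so the call needs both. FOXF1 was the only 1 of 11 tested rows of this list to be called, against 2.57% of all genes. Limma voom called 1 row of the list and limma on log2 levels called 0.

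Neural crest markers, 6 rows, were at 7.86 against 4.63 in heart 1, 8.43 against 5.48 in heart 2 and 5.33 against 4.77 in heart 3, higher in the CXCL12 sections of each heart. The 6 rows tested had a median log2 difference of 2.76 in the outflow tract and 0 were called by the quasi-likelihood test or by limma, with 2 at an unadjusted p under 0.05. HAND2, a transcription factor that heart muscle and endocardium also express, made up most of this list. In heart 3 HAND2 was lower in the CXCL12 sections, at 3.61 against 4.35. The higher sum rests on a SOX9 row, for a crest and cartilage transcription factor, at 1.18 against 0.413. It rests as well on TFAP2A, named here after its values were seen, with 64 reads in heart 3. TFAP2A was the only other row of the list with reads in that heart. Red blood cell markers, 8 rows, were at 17.8 against 7.58 in heart 1 but at 0.711 against 17.3 in heart 2 and 0.00843 against 6.45 in heart 3. Endothelial markers, 10 rows, were lower in the CXCL12 sections in all 3 hearts, at 3.81 against 6.56, 2.98 against 4.86 and 9.89 against 15.7. That sum was led by cdh5, an endothelial cadherin, while FLI1, a transcription factor of endothelial cells, went the other way, at 1.27 against 0.663, 0.553 against 0.209 and 1.93 against 1.62. Smooth muscle markers, 8 rows, were lower in sum as well, at 2.53 against 4.85, 2.59 against 6.16 and 5.42 against 9.51, with acta2 the most read row. Its member fbln5 went the other way, with 167 of 173, 58 of 69 and 95 of 95 reads in CXCL12 sections. Those sections held 29.8%, 73.5% and 45.8% of all gene reads. No one of these lists was higher in the CXCL12 sections of each heart except neural crest, whose members did not all go that way. The part of any of these cell types in the CXCL12 profile was not tested.

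**Figure D5:**
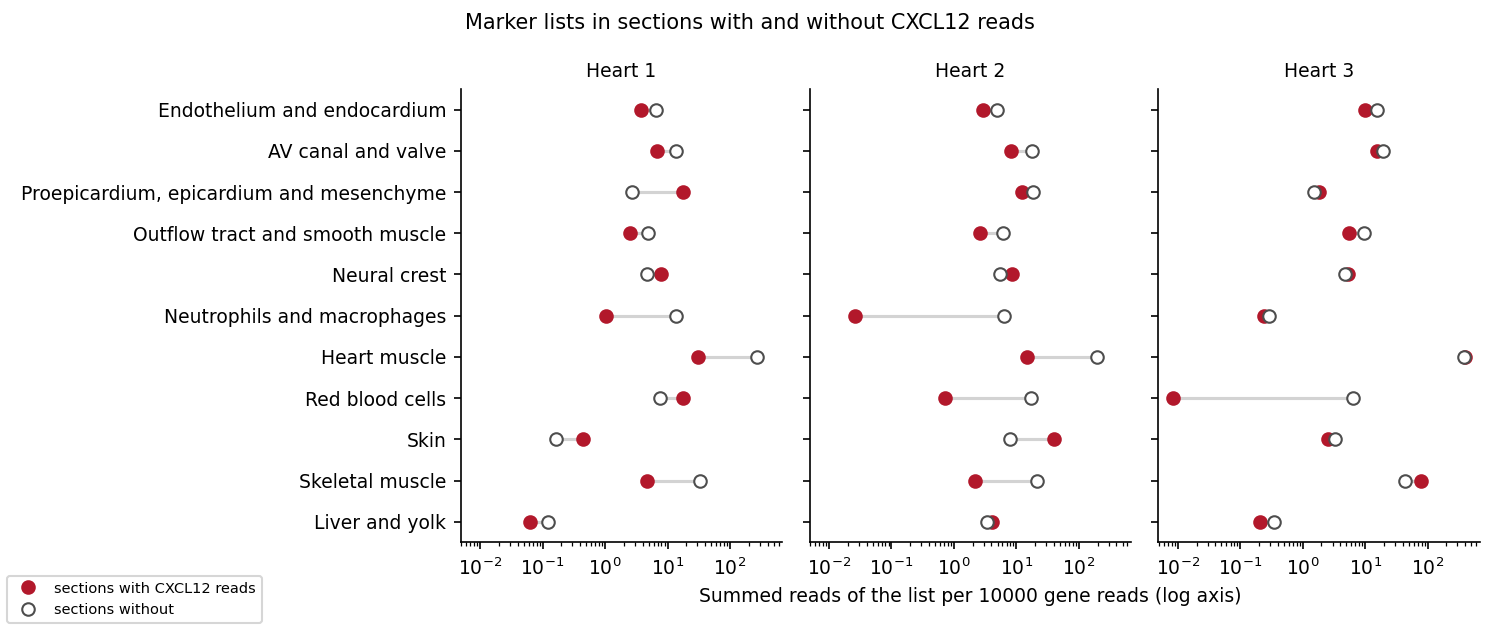
Summed level of each marker list in the sections with CXCL12 reads and in the other sections of hearts 1, 2 and 3, in reads per 10000 gene reads on a log axis. Heart muscle markers stand at 30.3 against 267 in heart 1 and 14.8 against 198 in heart 2 but at 398 against 382 in heart 3, and skin markers stand out at 39.8 against 7.98 in heart 2.

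In the outflow tract test the counts of the remaining marker lists stand against 2.57% of all 9761 genes called, 219 of them lower and 32 higher. Heart muscle fell in 4 of 12 rows tested. These were nppa, the atrial natriuretic peptide, nppb, its ventricular relative, MYBPC3, a sarcomere protein, and RYR2, the calcium release channel. The sum of the list was lowest in the outflow tract window in hearts 1 and 2, at 9.69 and 3.65 per 10000. In heart 3 that sum was highest there, at 631 against 190 to 542 in the other windows, so the list as a whole did not fall in each heart. The largest fall was that of nppb, with 4 reads against 8529, 15 against 1737 and 0 against 7435 (log2 difference -9.38, SE 1.67, adjusted p = 0.00222 by the quasi-likelihood test). Of the smooth muscle list 2 of 6 rows fell. These were acta2, the smooth muscle actin (log2 difference -8.44, adjusted p = 0.00289 by the quasi-likelihood test), and a TAGLN row, for the smooth muscle protein transgelin. The level of acta2 was highest in the sinoatrial region of hearts 1 and 2 (12.1 and 9.51 per 10000) and in the atrium of heart 3 (18.7). Which cells held it was not tested. Other rows of that list were not called, among them fbln5 (log2 difference 3.44, adjusted p = 0.427 by the quasi-likelihood test) and the other TAGLN row (1.02). Endothelium fell in 1 of 8 (she) and neutrophils and macrophages in 1 of 4 (lyz, the lysozyme). Of these 4 lists limma voom called 8, 1, 0 and 1 rows, and limma on log2 levels called 0 of each. Skin, AV canal and valve, red blood cell, skeletal muscle and liver lists had 0 calls among 6, 9, 6, 4 and 1 rows tested, with 3, 3, 0, 3 and 0 at an unadjusted p under 0.05. Limma voom called 1 red blood cell row and 1 skeletal muscle row and none of the other 3 lists, and limma on log2 levels called 0 rows of each.

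In the other comparisons the marker lists had a single call, in ventricle against atrium, where 1 of 4 neutrophil and macrophage rows fell, against 0.221% of all 4531 genes called. Each limma fit called 1 row of that list in the AV canal comparison, where the quasi-likelihood test called 0 and 3 had an unadjusted p under 0.05. Without heart 1 or without heart 2 the outflow tract test called 0 genes in all, against 251 with 3 hearts and 340 without heart 3.

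The genes whose levels over the windows were most like CXCL12 were ARHGAP21, si:dkeyp-97b10.3, fbln5, an elastic fibre protein that is also in the smooth muscle list, EFR3B, a plasma membrane scaffold, and PCDH7, a protocadherin adhesion protein. Likeness was Pearson's r of log2 levels over 15 window values of 3 hearts, centred per heart, among 6204 genes with at least 10 reads in each heart. The 5 had r = 0.93, 0.929, 0.928, 0.923 and 0.915, while the median gene had 0.22 and 11 genes were over 0.9. The values share sections and depth, and no test was made. The 5 genes had few reads. In hearts 1, 2 and 3 fbln5 had 173, 69 and 95. Its window levels were 1, 0.149 and 0 per 10000 in the outflow tract and 0 in each atrium and sinoatrial window. In heart 3 its level was 0.401 in the ventricle window and 0.527 in the AV canal window. PCDH7 had 63, 134 and 27 reads, of which 63, 128 and 0 lay in CXCL12 sections.

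Over 88 single sections with at least 10000 gene reads the order changed. The same 5 genes had r = 0.422, 0.556, 0.522, 0.318 and 0.56, at ranks 351, 40, 75, 1196 and 38. The 5 best there were foxd2, a forkhead transcription factor (r = 0.757), TNC, the matrix protein tenascin C (0.753), CNN3, an actin-binding calponin (0.718), and a pair of rows without a symbol. TNC had 203, 1192 and 73 reads and CNN3 had 1752, 6956 and 377. Which genes are most like CXCL12 thus depended on whether windows or sections were compared.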

How the data were processed

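Single sections of 3 wild-type hearts were sequenced by the authors with CEL-seq on a NextSeq instrument, mapped to the zebrafish genome Zv9 and, per the submitters' notes, with BWA 0.6.2 among the tools named. The deposited values are whole-number read counts per gene row and section, and the scaling by totals and spike-ins that the authors describe is not in them. Each table has 96 columns, and 56 of them for heart 1, 48 for heart 2 and 67 for heart 3 fall outside the labelled tissue and stayed out. For heart 1, columns 17 to 24 follow the order its label gives. Spike-in rows were left out of gene totals. Of 16023 gene IDs, 12905 (80.5%) had a symbol in the name table. No genome was used, and no sequence is printed.

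The CXCL12 row, its window ratios and the gene lists were chosen with earlier results of these data known. Levels are reads per 10000 gene reads. Exact Poisson limits (95%) and exact intervals for the ratio of 2 counts were used, with 3 reads as the floor for a count of 0. Windows were summed per heart, and the 3 hearts are the replicates. Windows of one heart come from the same animal, so the heart was a block. Genes with at least 10 reads in 2 of the 3 hearts were tested.

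Neither edgeR, whose quasi-likelihood test had been planned, nor DESeq2 was run, because the unit check did not read these wide tables as counts. The test that replaced it was written in base R (R 4.3.3): a negative binomial fit with 1 common dispersion, trimmed-mean-of-M-values factors, Pearson residual variances squeezed toward a trend by limma 3.58.1, residual degrees of freedom without values fitted at 0, and Benjamini-Hochberg adjustment at 0.05. Its form was settled after results of earlier forms were seen, which are among the alternatives. A row with 0 reads on the same side in every heart kept no residual degrees of freedom, so its p rests on that trend alone. The test was tried on simulated counts of each comparison. Likeness used log2(level + 0.1). Other work used Python 3.11.15 with pandas 2.3.3, numpy 2.4.6 and scipy 1.17.1.

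Named were CXCL12, its receptors and paralog, the called or 3 most read rows of the receptor partners and other chemokines, up to 3 rows of each marker list, the 5 most like genes, and vmhc and myh6. One of the most read receptor partners is not reported here. Rows named after their values were seen are marked in the text or are called rows of a marker list. Paired copies, such as the CXCR4, ACKR3, SOX9 and globin rows, can share reads and are uncertain. The authors' own processed comparisons were not used.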

Additional observations from a re-analysis of the deposited data

How the results depend on the processing

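Over 9 results and 97 alternatives, 63 values stayed within the allowed range and 34 moved outside it. No value was labelled reversed, a label that counts of called genes could not receive. The mean log2 ratio of AV canal over chambers did change sign outside its range when hearts were placed by read-weighted medians. For the CXCL12 ratios that range is 1 SD over hearts, which is wide, so a value inside it can still change sign. The mean log2 ratio of AV canal over chambers was 1.02 ± 2.65 (SD, n = 3). It became -1.12 with hearts 2 and 3 moved toward the inflow by 1 section of heart 1. With hearts placed by read-weighted medians, chosen after seeing the data, it became -3.84. The mean for the outflow tract over the other windows was 4.82 ± 5.18 (SD, n = 3). It became 2.8 with hearts 2 and 3 moved toward the inflow by 1 section of heart 1. With sections of at least 10000 gene reads, which left 2 hearts, it became 8.98. Leaving out each heart in turn gave -0.201 to 2.43 for AV canal over chambers. It gave 2.49 to 7.61 for the outflow tract over the other windows and -7.58 to -4.99 for the sinoatrial region. For ventricle over atrium it gave -0.0186 to 3.77. These means add 0.5 reads where a window had 0.

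Counts of called genes were less stable. The main counts were 11 for the AV canal, 251 for the outflow tract, 3 for the sinoatrial region and 10 for ventricle against atrium. Median-of-ratios factors gave 144 for the outflow tract and 1 for the sinoatrial region. Limma on log2 levels gave 4 for the AV canal, 2 for the outflow tract and 6 for ventricle against atrium, and overlapping windows gave 50 for the last. Without the replicate block, the pairing by heart, the counts were 30, 965, 183 and 53 in the order given. Leaving out 1 heart gave 2 to 9, 0 to 340, 0 to 55 and 3 to 11.

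Of the alternatives chosen after seeing the data, limma voom gave 3 for the AV canal, 156 for the outflow tract and 0 for the sinoatrial region. Full residual degrees of freedom gave 294, 582, 3550 and 536, and squeezing all genes alike gave 6 for the sinoatrial region. Placement by read-weighted medians gave 2 for the AV canal, 0 for the outflow tract and 32 for the sinoatrial region. The causes were not tested. Of the 5 genes most like CXCL12, 2 stayed among the best 50 over single sections, and 2 to 5 when a heart was left out. The DESeq2 test was not run. Thin sections limit heart 3, whose outflow tract window held 14700 gene reads.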
